A study of Mus musculus with 2 samples.

Results

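The protocadherins are the largest family of cadherin-type adhesion proteins, and were examined here in mouse lung at embryonic day 15.5. Every protein-coding gene whose symbol begins with Pcdh was taken, after the gene identifiers of the deposited tables had been matched to GENCODE names. This gave 69 of the 43346 genes in the tables: 14 in the alpha cluster, 22 in the beta cluster, 21 in the gamma cluster and 12 outside the clusters. The series holds 1 group of 2 total RNA libraries from healthy B6NCrl embryos, with both sexes pooled. Replicate 1 came from the lungs of 78 embryos and replicate 2 from the lungs of 62 embryos. Neither library had a treatment or an altered allele, so the members were compared with one another and between the libraries. Each pool is a single library, and differences of dissection or preparation cannot be told apart from those between pools.

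The clustered protocadherins lie in tandem arrays. Each alpha or gamma gene has its own promoter and a large variable exon for the extracellular cadherin repeats, the membrane segment and a short tail, and is spliced to 3 constant exons that all genes of the cluster share. The beta genes have the variable exon alone. In neurons the promoters are chosen in combinations, and the proteins bind their own kind on other cells and give each neuron a surface identity. The last genes of the alpha and gamma arrays, called C types, are regulated apart from the rest. The non-clustered members are scattered through the genome and fall mostly into the delta 1 and delta 2 families, whose members act in cell adhesion, cell movement and axon growth.

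Pcdh18 and Pcdh10 are delta 2 genes on the same chromosome, as are Pcdh17 and Pcdh8, and in each pair the first had far more reads and the second was close to the limit of counting. The RefSeq promoter windows of these 4 genes (build GRCm38.p6, 250 bases before to 50 bases after the start) are printed to show what stands upstream of genes with such different levels. Every CG dinucleotide, the site of DNA methylation, is in capitals. The windows are chr3:49757267-49757566 on the minus strand for Pcdh18, chr3:45378148-45378447 on the plus strand for Pcdh10, chr14:84443313-84443612 on the plus strand for Pcdh17 and chr14:79771263-79771562 on the minus strand for Pcdh8.
Pcdh18: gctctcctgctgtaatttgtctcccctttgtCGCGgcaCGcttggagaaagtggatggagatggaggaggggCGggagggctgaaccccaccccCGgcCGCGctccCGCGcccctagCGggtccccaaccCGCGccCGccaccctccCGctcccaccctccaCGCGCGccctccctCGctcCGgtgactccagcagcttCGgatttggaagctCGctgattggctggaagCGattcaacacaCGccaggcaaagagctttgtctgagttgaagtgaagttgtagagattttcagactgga
Pcdh10: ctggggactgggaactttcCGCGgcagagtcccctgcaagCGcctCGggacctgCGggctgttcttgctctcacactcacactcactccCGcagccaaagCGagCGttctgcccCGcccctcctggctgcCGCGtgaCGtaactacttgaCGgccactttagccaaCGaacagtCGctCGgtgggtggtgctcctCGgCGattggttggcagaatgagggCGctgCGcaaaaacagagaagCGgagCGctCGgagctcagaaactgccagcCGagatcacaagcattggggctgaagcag
Pcdh17: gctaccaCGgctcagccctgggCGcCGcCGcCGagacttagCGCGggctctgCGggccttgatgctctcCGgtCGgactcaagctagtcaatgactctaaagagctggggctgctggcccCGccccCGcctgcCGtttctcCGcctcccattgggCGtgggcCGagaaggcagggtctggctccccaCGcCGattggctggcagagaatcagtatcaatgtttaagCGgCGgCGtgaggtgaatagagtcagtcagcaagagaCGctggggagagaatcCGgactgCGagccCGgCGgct
Pcdh8: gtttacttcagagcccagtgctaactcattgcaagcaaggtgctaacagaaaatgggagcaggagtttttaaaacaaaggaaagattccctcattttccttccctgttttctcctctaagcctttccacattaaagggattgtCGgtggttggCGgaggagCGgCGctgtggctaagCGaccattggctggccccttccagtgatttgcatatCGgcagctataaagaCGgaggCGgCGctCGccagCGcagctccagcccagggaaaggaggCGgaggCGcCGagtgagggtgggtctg
The Pcdh18 window holds 23 CG and the Pcdh10 window 24. At least as many stand in 21.5% and 20.0% of the 32851 windows of the table. The Pcdh17 window holds 26 CG, a number reached by 16.9% of windows, and the Pcdh8 window 14, reached by 36.3%. The count of CG was thus much alike in the high and the low gene of the first pair and unlike in the second. A window was found for 9 of the 12 non-clustered genes, and the lowest count among them was 4 CG, for Pcdh20. These counts describe sequence only.

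Levels are given in TPM, a share of all transcripts that is already divided by transcript length, so that genes can be compared. A gene was called detected when each library had at least 1 TPM of it, and 40 of the 69 protocadherins met this (58.0%). Among all 21474 protein-coding genes the share was 60.7%, so the family as a whole was close to the background. The groups differed: 20 of 21 gamma genes passed, 9 of 12 non-clustered genes, 10 of 22 beta genes and 1 of 14 alpha genes. No member passed in one library only. The median level of the detected protein-coding genes was 20.3 TPM in replicate 1 and 19.2 TPM in replicate 2. Only Pcdhgc3, Pcdh18 and Pcdhgc4 lay above it, and these 3 genes held 52.6% of the summed protocadherin TPM in replicate 1 and 52.8% in replicate 2, though the level of Pcdhgc4 rests mostly on exons shared by the gamma genes.

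The summed level of the gamma cluster was 155.7 TPM in replicate 1 and 147.3 TPM in replicate 2 (151.5 ± 5.93, SD, n = 2). The non-clustered genes together gave 114.2 TPM in replicate 1 and 108.0 TPM in replicate 2 (111.1 ± 4.36). The beta cluster gave 22.6 TPM in replicate 1 and 23.3 TPM in replicate 2 (22.9 ± 0.552). The alpha cluster was lowest, with 4.06 TPM in replicate 1 and 3.46 TPM in replicate 2 (3.76 ± 0.424). The order of the 4 groups was the same in both libraries, and the gaps between them were wider than the spread between libraries. The gap between the gamma and the non-clustered sums rests on Pcdhgc4-203, a Pcdhgc4 transcript of mostly shared exons. Without it the gamma sum was 115.6 TPM in replicate 1 and 112.2 TPM in replicate 2, a gap no wider than the SD of the non-clustered sum. The RNA came from whole lung, so a low level from fewer cells of a type and one from less RNA per cell cannot be told apart.

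**Figure D1:**
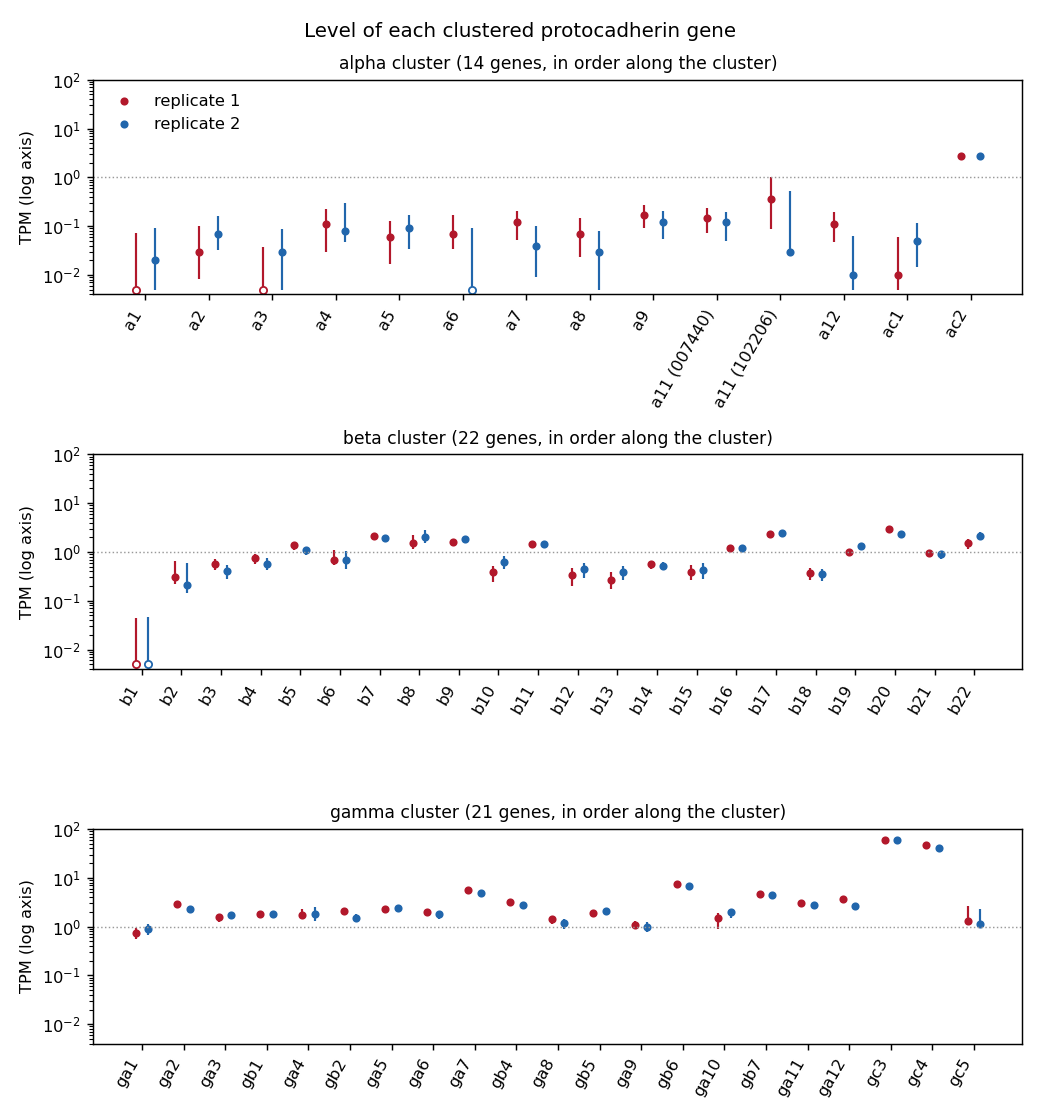
TPM of each clustered protocadherin (vertical log axis) in order along its cluster (horizontal axis), with replicate 1 left of replicate 2. Points are the deposited TPM, bars the deposited interval, open points values of 0 drawn at the bottom, and the dotted line 1 TPM. The 2 alpha genes named a11 are told apart by the end of their identifiers. Levels were low along the alpha array up to its last gene, ac2, uneven along the beta array, and highest at gc3 and gc4 near the end of the gamma array. The gc4 level rests mostly on exons shared by the gamma genes.

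The gamma cluster spans chr18:37661793-37841873 (GRCm38), with all 21 genes on the plus strand. Its genes of the A and B types were low but broadly present. Its C types held most of the level as deposited: 68.8% of the cluster's TPM in replicate 1 and 69.6% in replicate 2. Of that level, 40.1 TPM in replicate 1 and 35.1 TPM in replicate 2 lay on a Pcdhgc4 transcript of mostly shared exons. Whether the reads of that transcript came from Pcdhgc4 was not tested. Without it the C types still held more than the A and B types together, but a smaller share. Pcdhgc3 (ENSMUSG00000102918), which in mouse cortical neurons promotes dendrite branching, was the highest protocadherin of all. It had 59.8 TPM in replicate 1 and 60.8 TPM in replicate 2 (60.3 ± 0.714, SD, n = 2), and its mean lay above 79.0% of the 13032 detected protein-coding genes. Pcdhgc4 (ENSMUSG00000023036), needed for the survival of mouse interneurons, followed with 46.1 TPM in replicate 1 and 40.5 TPM in replicate 2 (43.3 ± 3.90). The tables give each TPM an interval, of a level not stated, that covers counting and read assignment. The intervals of these genes overlapped in neither library, and Pcdhgc3 stood 1.30-fold above Pcdhgc4 in replicate 1 and 1.5-fold in replicate 2. Pcdhgc5, the last gene of the array and a gene of later brain development, had only 1.31 TPM in replicate 1 and 1.14 TPM in replicate 2 (1.23 ± 0.120). Pcdhgc3 was 45.6-fold above Pcdhgc5 in replicate 1 and 53.3-fold in replicate 2, so the C types of 1 array differed widely among themselves. A second deposited estimate, the posterior mean TPM, gave Pcdhgc5 1.87 in replicate 1 and 1.59 in replicate 2. By that estimate these folds were smaller.

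After Pcdhgc3 and Pcdhgc4 came Pcdhgb6, with 7.35 TPM in replicate 1 and 6.66 TPM in replicate 2 (7.01 ± 0.488). The place of Pcdhgc4 above Pcdhgb6 rests on the Pcdhgc4 transcript of mostly shared exons. Pcdhga7 had 5.5 TPM in replicate 1 and 4.97 TPM in replicate 2 (5.24 ± 0.375). Pcdhgb7 had 4.67 TPM in replicate 1 and 4.49 TPM in replicate 2 (4.58 ± 0.127). Pcdhgb6 was separated from Pcdhga7 by the intervals of both libraries, but Pcdhga7 was not separated from Pcdhgb7. Pcdhga12 had 3.75 TPM in replicate 1 and 2.69 TPM in replicate 2 (3.22 ± 0.75). Pcdhgb4 had 3.17 TPM in replicate 1 and 2.78 TPM in replicate 2 (2.98 ± 0.276), and Pcdhga11 had 3.07 TPM in replicate 1 and 2.80 TPM in replicate 2 (2.94 ± 0.191). These 3 could not be ordered, since their intervals overlapped in at least 1 library. The remaining A and B genes had mean levels down to 0.83 TPM, for Pcdhga1, the first gene of the array and the one gamma gene below the minimum, named after its value was seen. The median level was 1.87 TPM for the 12 A-type genes in each library, and for the 6 B-type genes 2.64 TPM in replicate 1 and 2.45 TPM in replicate 2. Of the 20 pairs of neighbours in the gamma order, 4 were separated in both libraries. The intervals therefore resolve the top of the cluster and little of the rest.

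The constant exons take up much of each gamma transcript. They measure 59, 89 and 1971 nt, 2119 nt in all, and lie at chr18:37825021-37825079, chr18:37833265-37833353 and chr18:37839903-37841873. They make up a median of 44.8% of the 21 gamma protein-coding transcripts longer than 4000 nt, so a read within them does not tell which gene was transcribed. Pcdhgc4 was the extreme case. Its transcript Pcdhgc4-203 is 2272 nt long and has 153 nt of its own, at chr18:37815401-37815553 inside the Pcdhgc4 variable exon, and 93.3% of its bases are the shared ones. This transcript had 40.1 TPM in replicate 1 and 35.1 TPM in replicate 2 (37.6 ± 3.56), which was 87.1% of the TPM of the gene in replicate 1 and 86.6% in replicate 2. The transcript with the whole variable exon, Pcdhgc4-201, had 1.22 TPM in replicate 1 and 0.97 TPM in replicate 2 (1.10 ± 0.177). The retained-intron transcript Pcdhgc4-202, which lies in the variable exon and the intron after it, had 4.73 TPM in replicate 1 and 4.47 TPM in replicate 2 (4.60 ± 0.184). Whether the reads given to Pcdhgc4-203 came from Pcdhgc4 or from other gamma genes was not tested.

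Pcdhgc3 differed in this from Pcdhgc4. Its full-length transcript Pcdhgc3-201, with a variable exon of 2568 nt, had 52.9 TPM in replicate 1 and 51.4 TPM in replicate 2 (52.2 ± 1.09). That was 88.5% of the gene's TPM in replicate 1 and 84.5% in replicate 2, so most of the level of Pcdhgc3 was given to a transcript with a long exon of its own. Pcdhgc3-202, a transcript annotated for nonsense-mediated decay, had 5.98 TPM in replicate 1 and 8.05 TPM in replicate 2 (7.02 ± 1.46). An antisense gene, BC037039 (chr18:37805718-37807922, minus strand), overlaps the Pcdhgc3 variable exon and had 6.62 TPM in replicate 1 and 5.85 TPM in replicate 2. Use of strand in counting is not given in the sources used here, so the reads of this pair may not be fully told apart.

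**Figure D2:**
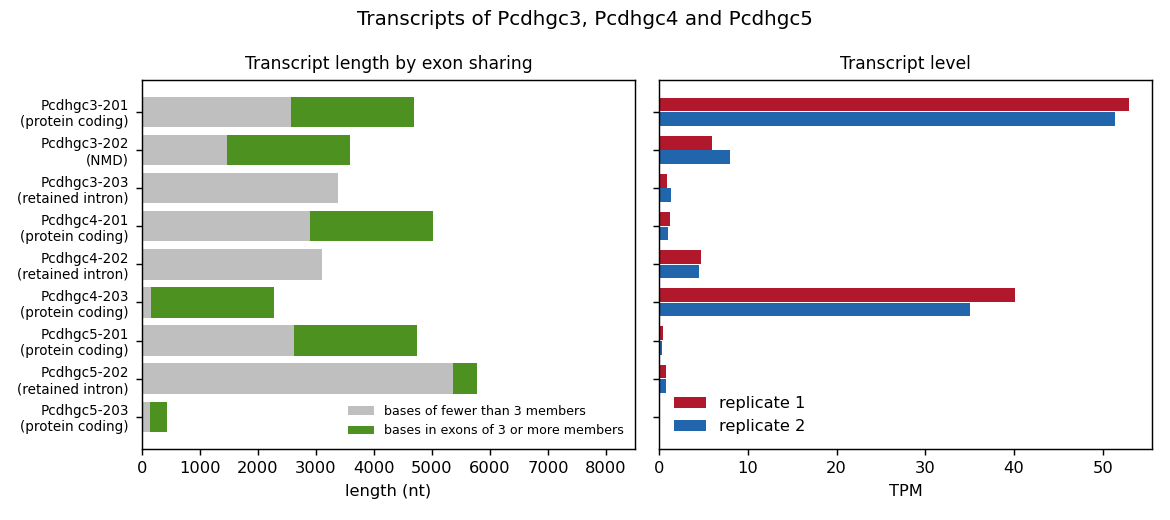
Left, length in nt of each transcript of the 3 gamma C genes with a level above 0, with bases in exons of 3 or more protocadherin genes in green and the rest in grey; right, TPM of each transcript, with replicate 1 above replicate 2. The bulk of the Pcdhgc3 level falls on a transcript with a long exon of its own, and the bulk of the Pcdhgc4 level on Pcdhgc4-203, which is 93.3% shared.

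The alpha cluster (chr18:36930184-37187661) was nearly silent but for its last gene. Pcdhac2 (ENSMUSG00000102697), which mouse serotonergic axons need to spread through their targets, had 2.80 TPM in replicate 1 and 2.77 TPM in replicate 2 (2.79 ± 0.0212, SD, n = 2). It stood above all 13 other alpha genes by the intervals of both libraries. Pcdhac1, the other alpha C type, had 0.01 TPM in replicate 1 and 0.05 TPM in replicate 2. The 12 genes before the C types ranged from 0 to 0.36 TPM and summed to 1.25 TPM in replicate 1 and 0.64 TPM in replicate 2. After Pcdhac2 the highest means were those of one of a pair of identifiers named Pcdha11, ENSMUSG00000102206, at 0.36 TPM in replicate 1 and 0.03 TPM in replicate 2, and of Pcdha9, at 0.17 TPM in replicate 1 and 0.12 TPM in replicate 2. The first of these had 7.86 reads in replicate 1 and 3.65 reads in replicate 2. Its effective length was 831 nt in replicate 1 and 4484 nt in replicate 2, so its TPM differed far more than its reads. In replicate 2 its TPM lay below its own interval. The lowest was Pcdha1, with 0 reads in replicate 1, and 2.03 reads (0.02 TPM) in replicate 2. For counting alone 0 reads allow up to 0.0227 TPM, while the deposited interval of Pcdha1 in replicate 1, which covers assignment too, reached 0.0717 TPM. Pcdha3 and Pcdha6 were also at 0 in 1 library each. None of these 12 genes had more than 23.7 reads in a library, and no order among them can be read. Pcdhac2, with 428.7 reads in replicate 1 and 394.7 reads in replicate 2, has 3028 nt of variable exon beside the constant exons. The alpha constant exons measure 2860 nt in all and make up a median of 53.4% of the 19 alpha protein-coding transcripts longer than 4000 nt.

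The beta genes (chr18:37264938-37524479) are mostly single exons, and their reads can be assigned with little doubt. The highest was Pcdhb20, with 2.89 TPM in replicate 1 and 2.35 TPM in replicate 2 (2.62 ± 0.382, SD, n = 2). Pcdhb17 had 2.29 TPM in replicate 1 and 2.44 TPM in replicate 2 (2.37 ± 0.106), and Pcdhb7 had 2.11 TPM in replicate 1 and 1.92 TPM in replicate 2 (2.02 ± 0.134). The order of Pcdhb20 and Pcdhb17 was turned round between the libraries, so the top of this cluster was shared. Next were Pcdhb22, with 1.5 TPM in replicate 1 and 2.17 TPM in replicate 2 (1.84 ± 0.474), and Pcdhb8, with 1.54 TPM in replicate 1 and 2.03 TPM in replicate 2 (1.79 ± 0.346). The annotations of Pcdhb22 and Pcdhb21 overlap, and reads in the overlap are uncertain. Pcdhb9 had 1.60 TPM in replicate 1 and 1.83 TPM in replicate 2 (1.72 ± 0.163), and Pcdhb11 had 1.48 TPM in replicate 1 and 1.44 TPM in replicate 2 (1.46 ± 0.0283). Pcdhb5 had 1.37 TPM in replicate 1 and 1.09 TPM in replicate 2 (1.23 ± 0.198). Pcdhb1, the first gene of the array, had 0 reads in both libraries, which allows up to 0.0456 TPM in replicate 1 and 0.0490 TPM in replicate 2. Of the 21 pairs of neighbours in the beta order, only the lowest, Pcdhb2 above Pcdhb1, was separated in both libraries. The cluster thus had many members near the minimum, with none that stood above all others as Pcdhgc3 did in the gamma cluster.

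Doubt over read assignment differed between the groups. The deposited tables give a posterior SD of each gene's reads, a measure of how far reads could be moved between features. As a percent of the estimated reads its median was 31.7% in replicate 1 and 41.8% in replicate 2 for alpha genes with reads. It was 4.72% in replicate 1 and 5.05% in replicate 2 for gamma genes, and 0 in both libraries for beta and for non-clustered genes. It was 0 in both libraries for 11 of the 21 beta genes with reads and 11 of the 12 non-clustered genes, and for none of the alpha or gamma genes. The alpha genes also had the fewest reads, and the part of low counts in their larger percent was not tested. Within the gamma cluster Pcdhgc3 had the lowest percent, 1.18% in replicate 1 and 1.14% in replicate 2.

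**Figure D3:**
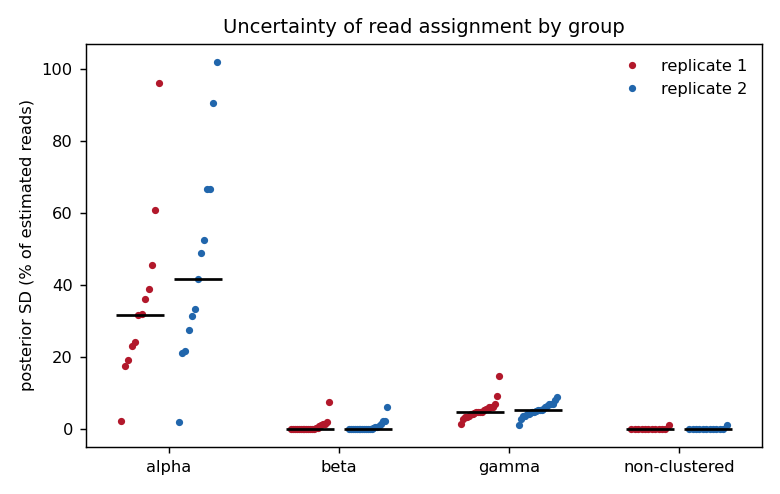
Posterior SD of a gene's reads as a percent of its estimated reads (vertical axis) for the 4 groups (horizontal axis), with replicate 1 left of replicate 2. Each point is a gene with reads and each black line a median. Alpha genes spread widely around medians of 31.7% and 41.8%, gamma genes lie near 5%, and most beta and non-clustered genes are at 0.

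Outside the clusters Pcdh18 led. Pcdh18 (ENSMUSG00000037892, chr3:49743296-49757325, minus strand), a delta 2 protein that binds the adaptor Dab1, had 50.1 TPM in replicate 1 and 47.6 TPM in replicate 2 (48.9 ± 1.73, SD, n = 2). It stood above the other 11 non-clustered genes by the intervals of both libraries, 3.19-fold above Pcdh1 in replicate 1 and 3.35-fold in replicate 2. Pcdhgc3 in turn was 1.19-fold above Pcdh18 in replicate 1 and 1.28-fold in replicate 2, again without overlap. Most of Pcdh18 was the transcript Pcdh18-201, with 79.5% of the gene's TPM in replicate 1 and 88.8% in replicate 2.

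A second tier held 3 genes between 12 and 16 TPM. Pcdh1, which in human airway has been tied to bronchial hyperresponsiveness and is a receptor for New World hantaviruses, had 15.7 TPM in replicate 1 and 14.2 TPM in replicate 2 (15.0 ± 1.06). Pcdh12, a protocadherin of endothelium and trophoblast also called VE-cadherin-2, had 14.9 TPM in replicate 1 and 14.7 TPM in replicate 2 (14.8 ± 0.198). Pcdh17, a delta 2 protein that recruits the actin-regulating WAVE complex in growing axons, had 14.6 TPM in replicate 1 and 12.4 TPM in replicate 2 (13.5 ± 1.54). Pcdh1 and Pcdh12 were not separated from each other, nor Pcdh12 from Pcdh17 in both libraries, while Pcdh1 stood above Pcdh17 by the intervals of both. Their transcripts differed in kind. Pcdh1-202, a protein-coding transcript, had 84.6% of the Pcdh1 TPM in replicate 1 and 85.1% in replicate 2. For Pcdh12 the retained-intron transcript Pcdh12-204 had 50.2% in replicate 1 and 56.3% in replicate 2, and the protein-coding Pcdh12-201 had 24.9% in replicate 1 and 26.6% in replicate 2. Pcdh17 has 1 transcript in the tables.

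Pcdh9, a delta 1 protein, had 8.66 TPM in replicate 1 and 8.33 TPM in replicate 2 (8.50 ± 0.233), and was separated from Pcdh17 above it and Pcdh20 below it. Below it came 3 genes at nearly the same level. Pcdh20 had 2.87 TPM in replicate 1 and 3.15 TPM in replicate 2 (3.01 ± 0.198). The delta 1 genes Pcdh7, with 2.95 TPM in replicate 1 and 2.83 TPM in replicate 2 (2.89 ± 0.0849), and Pcdh11x, with 2.88 TPM in replicate 1 and 2.85 TPM in replicate 2 (2.87 ± 0.0212), were not separated from Pcdh20 or from each other. Pcdh19, the X-linked delta 2 gene mutated in a human epilepsy that affects mainly females, had 1.09 TPM in replicate 1 and 1.36 TPM in replicate 2 (1.23 ± 0.191).

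The last 3 non-clustered genes fell below the minimum. Pcdh10, a delta 2 protein of axon growth, had 18 reads in replicate 1 and 19 reads in replicate 2, but 0.11 TPM in replicate 1 and 0.45 TPM in replicate 2. The tables gave it an effective length of 6464 nt in replicate 1 and 1732 nt in replicate 2, so its TPM differed where its reads did not. Pcdh15, the tip link protein of inner ear hair cells, had 10 reads (0.24 TPM) in replicate 1 and 4 reads (0.02 TPM) in replicate 2, and its TPM lay below its own interval in both libraries. Pcdh8, a delta 2 protein known in rat as arcadlin, had 10 reads in each library, 0.1 TPM in replicate 1 and 0.15 TPM in replicate 2. Between these 3 no order was separated. Set against their relatives with printed promoters, Pcdh18 had 6419 reads in replicate 1 and 5901 in replicate 2, and Pcdh17 had 3623 in replicate 1 and 2863 in replicate 2.

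**Figure D4:**
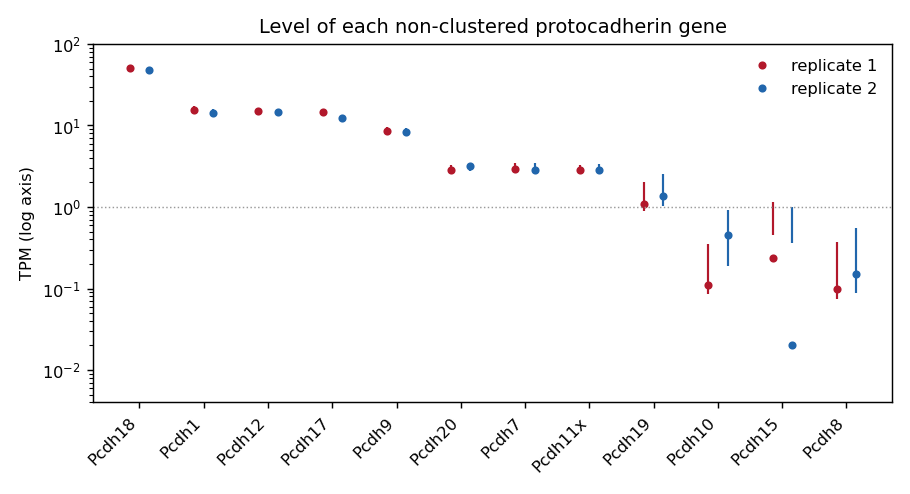
TPM (vertical log axis) of the 12 non-clustered protocadherins, ordered by mean, with replicate 1 left of replicate 2. Points are the deposited TPM, bars the deposited interval and the dotted line 1 TPM. Pcdh18 is at 50.1 and 47.6 TPM, 4 genes lie between 8 and 16 TPM, and Pcdh10, Pcdh15 and Pcdh8 lie below 1 TPM.

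Between the libraries the protocadherins differed little. A gene was called apart at a mean of 5 TPM or more when its TPM, scaled with edgeR's TMM factors, differed 2-fold or more and its deposited intervals did not overlap. None of the 9 protocadherins at that mean was called apart, against 0.364% of the 11261 genes at it. An exact binomial test, two-sided, was made of the rounded estimated reads of these 2 libraries. By it 3 of the 9 had an adjusted p under 0.05 (Benjamini-Hochberg over the 11261 genes), against 22.8% of those genes. These were Pcdh17 (exact test, adjusted p = 8.2e-05), Pcdhgc3 (exact test, adjusted p = 0.0074) and Pcdhgc4 (exact test, adjusted p = 0.028). The test compares the reads of a pair of libraries and carries neither error between pools nor doubt over read assignment. For Pcdhgc4 the posterior SD was 3.45% of its reads in replicate 1 and 3.59% in replicate 2. The log2 ratios of replicate 1 over replicate 2 for Pcdh17, Pcdhgc3 and Pcdhgc4 were 0.16, -0.10 and 0.11 in that order, well under 2-fold.

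The intervals were also compared with any fold allowed and replicate 1 put on the scale of replicate 2. Those of 4 of the 40 detected protocadherins did not overlap (10.0%), against 11.6% of the 14583 genes with at least 1 TPM in each library. This share was near the background. Higher in replicate 1 were Pcdh17, by a log2 ratio of 0.16, and Pcdhga12, by 0.41. The Pcdhga12 difference lay in its retained-intron transcript Pcdhga12-202, with 2.45 TPM in replicate 1 and 1.34 TPM in replicate 2, while Pcdhga12-201 had 1.30 TPM in replicate 1 and 1.34 TPM in replicate 2. Lower in replicate 1 were Pcdhb19 (1.01 TPM in replicate 1 and 1.35 TPM in replicate 2, log2 ratio -0.49) and Pcdhb22 (log2 ratio -0.60), the first of these being named after its value was seen. The intervals of Pcdhb22 overlap without the scaling. The median log2 ratio over the 40 detected members was -0.02, with 18 above 0 and 22 below, against -0.01 over the detected protein-coding genes. By group the median was 0.07 over 20 gamma genes, -0.14 over 10 beta genes and -0.02 over 9 non-clustered genes, and the difference between the groups was not tested. Higher in replicate 1 were 12 of the 20 gamma genes, 3 of the 10 beta genes and 3 of the 9 non-clustered genes.

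**Figure D5:**
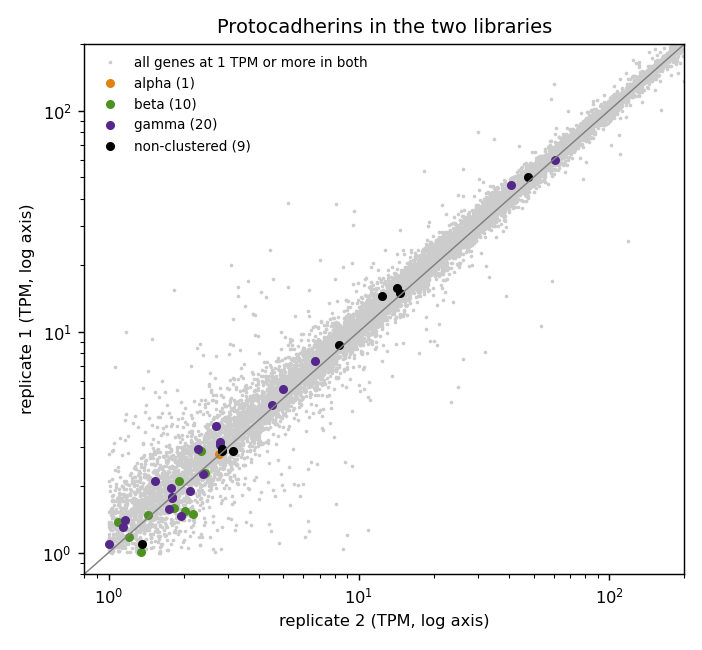
TPM in replicate 1 (vertical log axis) against replicate 2 (horizontal log axis) for the 40 detected protocadherins, coloured by group, over all genes with at least 1 TPM in each library in grey. A line marks equal TPM. The coloured points stay near the line, with scaled log2 ratios from -0.60 to 0.41.

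The tissue label was checked with marker genes. All 5 epithelial markers were detected, from the surfactant gene Sftpc, at 6881 TPM in replicate 1 and 5864 TPM in replicate 2, down to the lung transcription factor gene Nkx2-1, at 74.1 TPM in replicate 1 and 71.0 TPM in replicate 2. All 6 endothelial and all 6 mesenchymal markers were detected too. Since clustered protocadherins are best known in neurons, neuron markers were read beside them. Of 7 neuron markers 4 were detected, with a summed level of 37.8 TPM in replicate 1 and 21.5 TPM in replicate 2, of which Stmn2 held 16.7 TPM in replicate 1 and 11.2 TPM in replicate 2. Tubb3 had 9.68 TPM in replicate 1 and 3.84 TPM in replicate 2, Prph had 5.42 TPM in replicate 1 and 2.56 TPM in replicate 2, and the lowest, Elavl3, had 0.28 TPM in replicate 1 and 0.13 TPM in replicate 2. All 7 were higher in replicate 1 and Tubb3 was called apart, but the intervals of Elavl4, Snap25 and Elavl3 overlapped between the libraries. The part of neurons in the protocadherin levels was not tested. Of 5 glial markers 2 were detected, with a summed level of 24.1 TPM in replicate 1 and 21.1 TPM in replicate 2. Sums of hepatocyte markers (29.2 TPM in replicate 1 and 133.8 TPM in replicate 2), striated muscle markers (64.7 TPM in replicate 1 and 243.4 TPM in replicate 2) and thymus markers (39.6 TPM in replicate 1 and 10.0 TPM in replicate 2) also differed between the pools. The part of other tissue in the protocadherin levels was not tested.

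Genes known to act on or with protocadherins were read from fixed lists. Cohesin, CTCF and DNA methylation set the choice of clustered promoters, and all 12 genes of that list were detected. Highest were the methyltransferase Dnmt3a, with 125.3 TPM in replicate 1 and 118.2 TPM in replicate 2 (121.7 ± 5.06, SD, n = 2), and Ctcf, with 109.7 TPM in replicate 1 and 115.6 TPM in replicate 2 (112.7 ± 4.17). The cohesin subunit gene Smc1a had 97.2 TPM in replicate 1 and 88.6 TPM in replicate 2 (92.9 ± 6.03), and the lowest was Dnmt3b, with 10.99 TPM in replicate 1 and 10.33 TPM in replicate 2 (10.7 ± 0.467). None of the 12 was called apart, against 0.364% of the 11261 genes at a mean of 5 TPM or more. Both kinases that the constant domain binds were detected. Ptk2 had 50.9 TPM in replicate 1 and 47.0 TPM in replicate 2, and Ptk2b had 4.00 TPM in replicate 1 and 3.20 TPM in replicate 2.

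Of the 9 WAVE complex genes, 8 were detected, with Brk1 highest at 190.2 TPM in replicate 1 and 187.8 TPM in replicate 2, then Wasf2 and Cyfip1. Wasf3 was lowest, at 0.83 TPM in replicate 1 and 0.71 TPM in replicate 2. All 7 genes of the ADAM10 and gamma-secretase pathway, which cleaves protocadherins at the membrane, were detected. They ran from Ncstn, at 111.1 TPM in replicate 1 and 110.8 TPM in replicate 2, with Psenen and Adam10 next, down to Aph1b, at 5.43 TPM in replicate 1 and 6.66 TPM in replicate 2. Of the partners of Pcdh15 in the hair cell tip link, 2 of 9 were detected, Cib2 and Myo7a, while Cdh23, its partner cadherin, had 0.58 TPM in replicate 1 and 0.56 TPM in replicate 2. Tmie came next, at 0.96 TPM in replicate 1 and 0.72 TPM in replicate 2, and Tmc2 and Ush1g were at 0 in both.

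Other cadherins give a scale for these levels. A fixed list of 8 other cadherins, not the whole family, was read, and all 8 were detected. Highest was the mesenchymal Cdh11, with 179.5 TPM in replicate 1 and 175.9 TPM in replicate 2 (177.7 ± 2.50). The epithelial Cdh1 had 98.6 TPM in replicate 1 and 88.5 TPM in replicate 2 (93.6 ± 7.14). The endothelial Cdh5 had 62.9 TPM in replicate 1 and 59.1 TPM in replicate 2 (61.0 ± 2.68). The lowest, Cdh13, had 2.81 TPM in replicate 1 and 2.38 TPM in replicate 2. Pcdhgc3 was thus near the level of Cdh5, and no protocadherin reached that of Cdh1. Of 10 large cadherins and their partners of the Fat, Dachsous and Celsr kinds, 6 were detected, with Fat1 highest at 19.1 TPM in replicate 1 and 17.6 TPM in replicate 2, then Dchs1 and Celsr2. Dchs2 was lowest, at 0.11 TPM in each library. No gene of the lists of regulators, partners and other cadherins was called apart between the libraries. Of all 11261 genes at a mean of 5 TPM or more only 0.364% were, so this is near the background. Listed genes under that mean could not be called.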

How the data were processed

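Total RNA of lung from 2 pools of embryos was measured, with 1 library a pool. Per the file headers, the authors deposited for genes and transcripts the expected count (estimated reads), TPM, a posterior mean TPM, the bounds of a TPM interval, which are a signal on the TPM scale with a level not stated, and, for transcripts, the percent of the gene's TPM. The deposited text names build mm10 and annotation GENCODE M4; the program and its strand setting were not given in the sources used here. Gene names, types and exons came from GENCODE M21 on the same build. Replicate 1 had 40395850 reads and replicate 2 had 36601054, and their counts differed by more than sampling noise (chi-square divided by degrees of freedom of 6.65, 19397 genes).

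Python 3 scripts with pandas, and edgeR 4.0.16 (TMM on rounded expected counts of 43346 genes) and DESeq2 1.42.0 size factors in R 4.3.3, gave the ratios, replicate 1 over replicate 2. TMM shifted log2 TPM ratios by -0.07. Scaling was tested on simulated data. Levels of 2 members were called separated where their order was the same in each library and their intervals overlapped in neither. A base was shared when it lay in exons of 3 or more members. A count of 0 allows up to 3 reads, for counting error only. Named were every non-clustered and C-type gene, the detected genes of each cluster (at most the 8 highest; the 3 highest and the lowest where fewer than 3 passed), genes apart, and of each list of regulators, partners and other cadherins the 3 highest and the lowest; this rule does not cover the marker genes, named to check the tissue label. Members and lists were chosen with earlier results of these data known. With 1 group there was no comparison of conditions, and the alternatives tried are given in the closing section.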

Additional observations from a re-analysis of the deposited data

How the results depend on the processing

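The number of detected protocadherins was 40. It was 21 at a minimum of 2 TPM and 8 at 5 TPM, and stayed within 1.5 times at 0.5 TPM, with posterior mean TPM (39), with TPM rescaled over genes and in either library alone (40 to 40). Rescaling over genes moved the beta sum to 24.1 TPM, the gamma sum to 159.4 TPM and the non-clustered sum to 116.9 TPM, by its construction upwards. With protein-coding transcripts alone the gamma sum was 133.1 TPM and the non-clustered sum 96.0 TPM. Without Pcdhgc4-203, an alternative chosen after seeing the data, the gamma sum was 113.9 TPM. Leaving out a library gave 3.46 to 4.06 TPM for alpha, 22.6 to 23.3 TPM for beta, 147.3 to 155.7 TPM for gamma and 108.0 to 114.2 TPM for the non-clustered genes. The count of protocadherins apart was 0 under all 7 alternatives, and the median log2 ratio was -0.02 to -0.01 except with no scaling beyond TPM, where it was 0.06. Among single genes posterior means moved 11 of 36 levels and 4 of 34 log2 ratios. Among the levels moved were Pcdh15 to 0.715 TPM, Pcdhgc5 to 1.73 TPM and Pcdhgc3 to 58.8 TPM. No paired analysis was possible because the series holds 1 group. Depth limits the alpha genes other than Pcdhac2 and Pcdh8, Pcdh10 and Pcdh15, each with few reads. With 2 libraries an SD is itself uncertain.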

Other observations

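Other features of the protocadherin loci, named after their values were seen, had under 1 TPM in each library but for BC037039. That gene had 6.62 TPM in replicate 1 and 5.85 TPM in replicate 2. Pcdhgb8, annotated as a polymorphic pseudogene and so no member, had 0.84 TPM in replicate 1 and 0.61 TPM in replicate 2. The read-through gene Gm42416, whose annotation runs from the alpha into the gamma cluster, had 0 TPM in replicate 1 and 0.13 TPM in replicate 2, and the read-through genes Gm37013 and Gm37388 had 0 in both libraries. The transcript Gm38182 had 0.4 TPM in replicate 1 and 0.09 TPM in replicate 2, below its own interval in both libraries. Its posterior mean TPM was 1.45 in replicate 1 and 1.01 in replicate 2. The antisense Gm29994 had 0.14 TPM in replicate 1 and 0.52 TPM in replicate 2. The posterior SD of the reads of BC037039, antisense to Pcdhgc3, was 7.80% of them in replicate 1 and 8.85% in replicate 2, while that of Gm29994 was 0 in both.

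Retained-intron transcripts took different shares of the groups. They held 11.9% of the non-clustered TPM in replicate 1 and 11.8% in replicate 2, and 6.54% of the gamma TPM in replicate 1 and 6.34% in replicate 2. In the alpha cluster they held 0.739% in replicate 1 and 0 in replicate 2. In the beta cluster they held 0 in both libraries, where every transcript is annotated as protein-coding, so that value is set by the annotation. Much of the non-clustered share came from the retained-intron transcript of Pcdh12 described above. Much of the gamma share came from those of Pcdhgc4 and Pcdhga12. The shares thus rest on annotation and on few genes, and a difference between the groups was not tested. Place along an array is set beside level as a description across genes that share libraries and, in the alpha and gamma arrays, exons. Spearman's rho of place against TPM was 0.30 in replicate 1 and 0.42 in replicate 2 over the 22 beta genes. It was 0.39 in replicate 1 and 0.50 in replicate 2 over the 18 gamma genes of the A and B types. Over the 12 alpha genes before the C types, each with few reads, it was 0.82 in replicate 1 and 0.04 in replicate 2.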
